A study of Mus musculus with 6 samples.

Results

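The 10 genes described here respond to stretch or to calcineurin in cardiac muscle cells: Ankrd1, Ankrd2, Ankrd23, Csrp3, Xirp1, Xirp2, Rcan1, Mybpc2, Fhl1 and Fhl2. They were listed by name, and they are 10 of the 33744 genes given a value in the hearts of the series. All 10 had a value in every library, and 9 of them were among the 11269 genes abundant enough to be tested. The hearts came from mice aged 32 weeks. The control group was ApoE-/- (libraries 1, 2 and 3), described by the submitters as littermates, and the other group was ApoE-/- Timp3-/- (libraries 4, 5 and 6), called the double mutants here. Both groups lack apolipoprotein E, so no heart with a working ApoE gene was compared. Timp3 encodes a secreted inhibitor of matrix-degrading and membrane-shedding proteases. Each library is one RNA-seq sample of heart RNA, and the labels do not say which part of the heart was taken.

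Cardiac muscle cells sense load at the Z-disc, at titin and at the intercalated disc. Ankyrin repeat proteins and LIM domain proteins sit at these places, and several of them also move to the nucleus, where they act on transcription. A second route runs through calcium: calcineurin, a calcium-activated phosphatase, dephosphorylates NFAT factors, which then enter the nucleus and switch on target genes. Rcan1 is such a target and encodes an inhibitor of calcineurin, which closes a feedback loop.

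The unit is FPKM, the fragments found per kilobase of a transcript, set against all fragments mapped in that library. Values were summed over the transcripts of a gene and then scaled between libraries. FPKM given below are scaled unless they are called deposited, and ± is the SD over 3 libraries. The genotype difference is the double mutant mean minus the control mean on the log2(FPKM + 1) scale, with its standard error from limma, and it understates the change of low genes. Adjusted p are Benjamini-Hochberg values over all 11269 genes, with a threshold of 0.05. An exact two-sided permutation test of 3 against 3 libraries cannot give less than 0.1.

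Coverage added up to between 654 and 1339 aligned megabases per library, the most in library 2. The targeted gene, Timp3, was at 44.6, 37.7 and 39.3 FPKM in the control hearts and at 19.8, 31.3 and 29.3 in the double mutant hearts. Its transcript was thus lower in every double mutant without being absent (log2 difference -0.60 ± 0.19, limma adjusted p = 0.298). All 12 cardiomyocyte markers were measured, and their summed level was 17258 to 27300.5 FPKM. Atrial markers varied between libraries of both genotypes: their sum was 1523, 819 and 146 FPKM in libraries 1, 2 and 3, and 191, 1020.1 and 1505 in libraries 4, 5 and 6. Within this sum Nppa, also a listed load marker, was at 705, 797 and 112 FPKM in libraries 1, 2 and 3. It was at 139, 548 and 843 in libraries 4, 5 and 6. The sum of library 2 was thus nearly all Nppa. Myl7, the atrial myosin light chain, was at 351, 193 and 227 FPKM in libraries 1, 5 and 6, against 2.07, 1.32 and 13.1 in libraries 2, 3 and 4. Red blood cell markers were highest in library 4, at 12261 FPKM against 113 to 1193 elsewhere, and adipocyte markers in library 1, at 172 against 9.03 to 30.3. Of the fibroblast markers, 6 of 8 were lower in every double mutant than in every control. This held for 4 of 6 endothelial markers too, and for 9.14% of all genes tested. The fibroblast sums were 243 to 337 FPKM in the controls and 214 to 244 in the double mutants. Apart from the atrial markers, the part of these lists in the differences below was not tested.

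Promoter sequences are shown for 3 genes, Ankrd1, Ankrd23 and Rcan1. Each line holds the 250 bases before a RefSeq start in GRCm38.p6, written 5′ to 3′ on the minus strand, the strand of all 3 genes. In the first pair, of the load-responsive Ankrd1 and Ankrd23, capitals mark the M-CAT motif CATTCC or its reverse complement GGAATG, the element bound by TEAD factors. In the second pair, of the 2 starts of Rcan1, capitals mark the NFAT core GGAAA or its reverse complement TTTCC.
Ankrd1, chr19:36119845-36120094: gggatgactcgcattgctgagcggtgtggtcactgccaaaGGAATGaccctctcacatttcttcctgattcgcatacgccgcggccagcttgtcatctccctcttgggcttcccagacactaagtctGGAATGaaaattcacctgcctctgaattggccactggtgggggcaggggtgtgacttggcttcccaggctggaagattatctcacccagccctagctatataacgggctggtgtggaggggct
Ankrd23, chr1:36535740-36535989: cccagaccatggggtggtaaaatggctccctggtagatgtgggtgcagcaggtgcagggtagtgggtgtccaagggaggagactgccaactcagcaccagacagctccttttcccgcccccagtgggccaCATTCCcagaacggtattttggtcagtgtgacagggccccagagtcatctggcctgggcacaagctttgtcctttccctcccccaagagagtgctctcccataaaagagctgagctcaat
Rcan1 upstream start, chr16:92466170-92466419: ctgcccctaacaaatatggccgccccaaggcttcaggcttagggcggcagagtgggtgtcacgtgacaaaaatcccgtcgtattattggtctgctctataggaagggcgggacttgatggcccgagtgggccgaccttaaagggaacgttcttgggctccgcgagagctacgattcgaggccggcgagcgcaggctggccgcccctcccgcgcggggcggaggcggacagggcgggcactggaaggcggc
Rcan1 internal start, chr16:92400079-92400328: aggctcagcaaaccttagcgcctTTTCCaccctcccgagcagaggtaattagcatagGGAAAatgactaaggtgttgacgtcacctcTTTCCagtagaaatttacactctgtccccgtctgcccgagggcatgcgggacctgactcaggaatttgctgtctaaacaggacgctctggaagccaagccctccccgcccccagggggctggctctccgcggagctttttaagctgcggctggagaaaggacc
Ankrd1 held 2 M-CAT matches, beginning at positions -210 and -123 counted from its start, and 1.02% of the 32851 promoters searched held 2 or more in these 250 bases. Ankrd23 held 1, beginning at position -120, where 12.6% of promoters held at least 1. The upstream start of Rcan1 had no NFAT core in this stretch, and the internal start had 3, beginning at positions -227, -193 and -163, as 6.39% of promoters had 3 or more. The NFAT core is short, and 55.6% of all promoters held at least 1. No match marked here overlapped another.

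Over the 9 members with a window, 14 windows of 300 bases were searched on both strands, reaching past the start. M-CAT occurred in a window of 3 genes (Ankrd1, Ankrd23 and Mybpc2), the NFAT core in 4 (Ankrd23, Csrp3, Rcan1 and Fhl1) and the GATA core AGATAA in 3 (Ankrd1, Ankrd23 and Fhl2). A MEF2 site was found in 2 genes (Xirp2 and Fhl2) and a CArG box, the serum response factor element, in 2 (Fhl1 and Fhl2). Over all promoters, 14.7% of windows held M-CAT, 61.3% the NFAT core, 11.2% the GATA core, 3.19% the MEF2 site and 1.63% the CArG box. These shares are per window, while the members were counted per gene, with 14 windows for 9 genes. A match describes letters in a window and not a bound site. The NFAT cores of Csrp3 and Fhl1 lay in windows 4362 and 6804 bases from the nearest start of a detected reference transcript. Neither Fhl2 window had a detected reference transcript. Xirp1 is named here without a promoter.

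The 10 genes ran from very abundant to nearly silent in these hearts, in this order by control mean: Fhl2, Csrp3, Ankrd1, Ankrd23, Xirp2, Fhl1, Xirp1, Rcan1, Mybpc2 and Ankrd2. FPKM is a value per transcript length, so these levels can be set against each other, but only roughly. Each level is a sum over transcripts, in which a short transcript counts as much as a long one. For Xirp2 in library 2, a transcript of 2044 nt was at 91.0 deposited FPKM and another of 11979 nt at 29.5. The ranges of neighbours over the 6 libraries overlapped throughout, except at 3 steps. Xirp2 (82.0 to 148 FPKM) stood clear of Fhl1 (18.9 to 28.9), Rcan1 (7.29 to 20.4) clear of Mybpc2 (1.38 to 5.60), and Mybpc2 clear of Ankrd2 (at most 0.176). The widest ranges were those of Ankrd23, 6.07 times from lowest to highest library, and Ankrd1, 5.42 times.

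**Figure D1:**
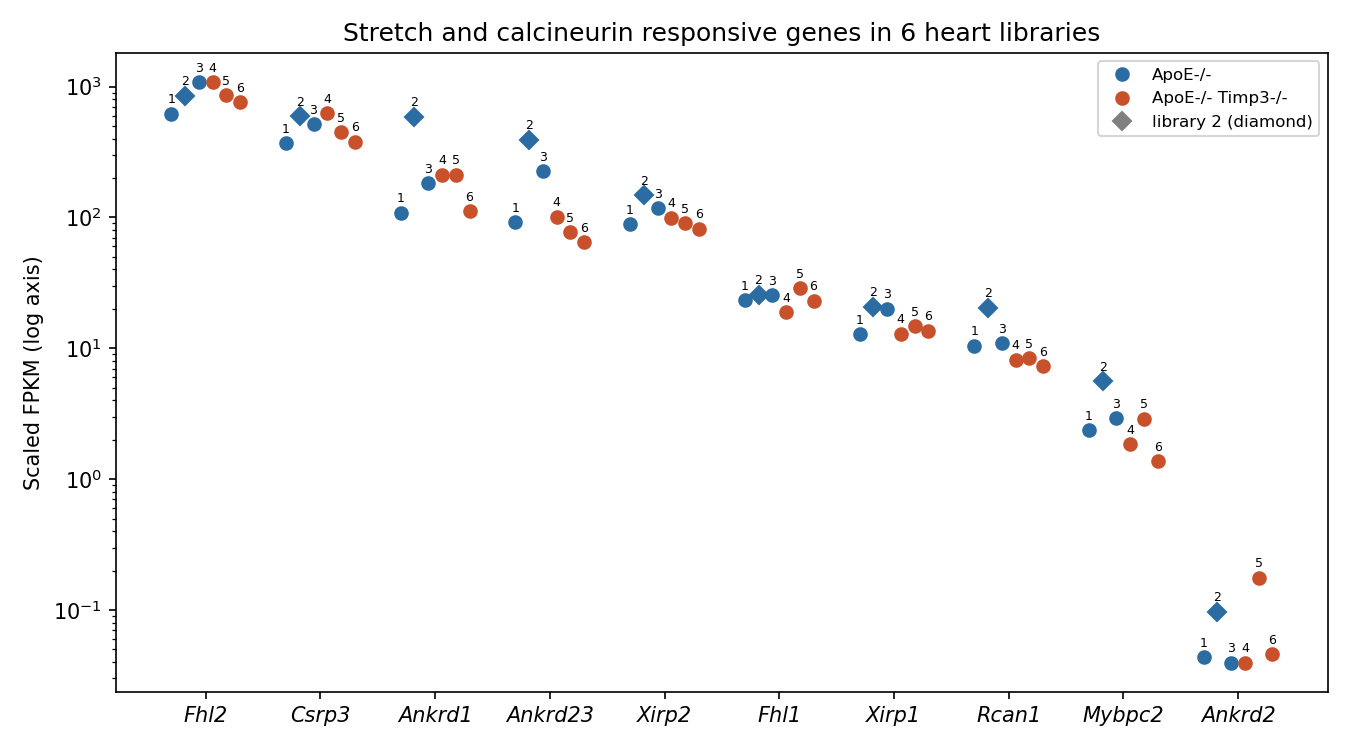
Scaled FPKM (log axis) of the 10 genes in each of the 6 heart libraries, ordered by control mean; points are single libraries, numbered, blue for ApoE-/- and orange for ApoE-/- Timp3-/-. Library 2 (diamond) is the highest of the 6 in 6 of the 9 tested genes, and the 3 orange points of Rcan1 all lie below its blue points.

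None of the 9 tested genes passed the adjusted threshold, which 0.0444% of all genes tested did (5 of 11269). Ankrd23 and Rcan1 were lower in the double mutants at an unadjusted limma p under 0.05, 2 of 9, and none was higher. Over all genes 5.19% were lower, 6.74% higher and 11.9% differed in either direction. Rcan1 was the 1 member whose double mutant values all lay below its control values, and 9.14% of all genes did so. No member had all double mutants above all controls, as 9.82% of genes had. The difference was below 0 for 8 of the 9, Fhl2 being the exception, where 51.0% of all genes were below 0, and the median was -0.35 against -0.01 over all genes. These counts depended on how libraries were scaled: with FPKM as deposited, 4 members were lower at an unadjusted p under 0.05, against 5.10% of all genes, and 5 were lower without overlap, against 9.73%. Library 1, whose scaling factor of 1.17 was the highest, is the control that reached into the double mutant range for Ankrd23, Xirp2 and Mybpc2 and lay just under it for Xirp1.

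**Figure D2:**
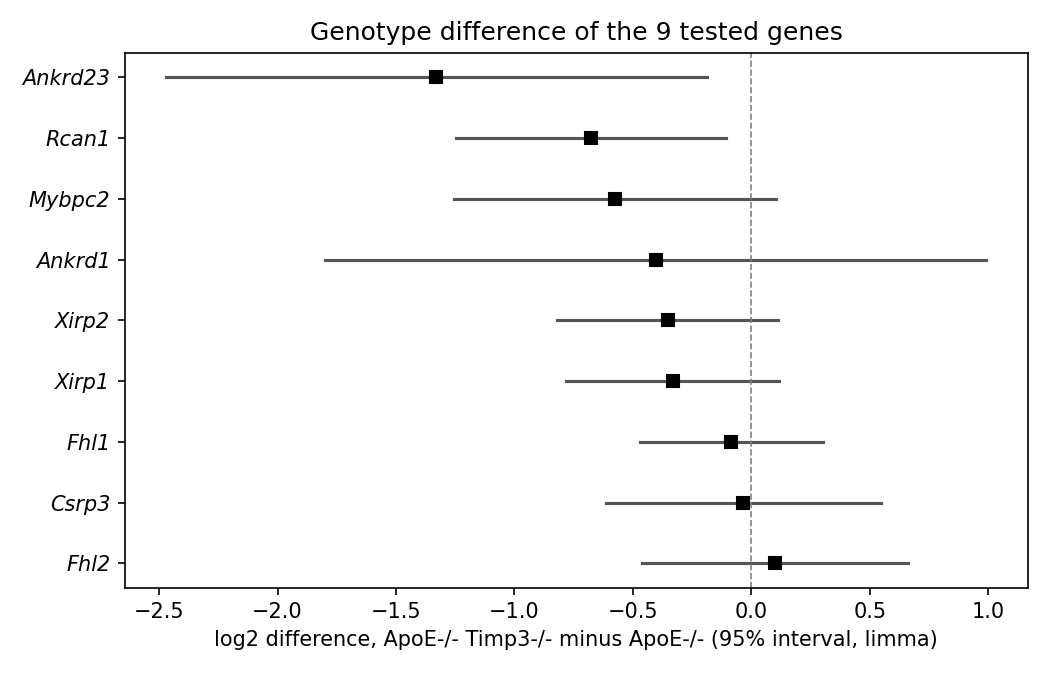
Difference between genotypes for the 9 tested genes, as log2 double mutant minus control (square) with its 95% interval from limma (line). The intervals of Ankrd23 and Rcan1 lie below 0 and the other 7 include 0.

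The muscle ankyrin repeat proteins bind titin in the I-band, and Ankrd1 is a widely used sign of load on the heart. Ankrd1 (ENSMUSG00000024803, NCBIM37 chromosome 19, 36186455 to 36194334, minus strand) was at 108, 587 and 182 FPKM in libraries 1, 2 and 3. In the double mutants it was at 212, 212 and 111 FPKM. Library 2 stood alone as high, and the other 5 libraries of both genotypes overlapped. The means were 292 ± 258 and 178 ± 58.2 FPKM, and the difference was -0.40 ± 0.59 on the log2 scale (95% interval -1.80 to 0.99, limma adjusted p = 0.830, exact permutation p = 0.9). Without library 2 the sign turned, to 0.28.

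Ankrd23 is the member of this family first described in diabetic muscle. Its 3 reference transcripts lie on chromosome 1 from 36587379 to 36592584 in NCBIM37, minus strand (ENSMUSG00000067653). The gene was at 92.1, 394 and 226 FPKM in libraries 1, 2 and 3, and at 101, 76.9 and 64.9 in libraries 4, 5 and 6. Libraries 2 and 3 were high, and control library 1 fell just under double mutant library 4, so the groups overlapped by that 1 pair. As deposited the values were 107, 396 and 208 FPKM against 103, 68.9 and 65.5, which did not overlap. The means were 237 ± 151 and 81.0 ± 18.4 FPKM, a ratio of 0.342. The difference was the largest of the 9 tested members, -1.33 ± 0.49 (95% interval -2.47 to -0.19, unadjusted p = 0.0282, limma adjusted p = 0.369, exact permutation p = 0.2). It was -0.85 without library 2 and -1.89 without library 1.

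The deposited FPKM of Ankrd23 came from several transcripts. The full-length transcript ENSMUST00000054665 (9 exons) was at 53.5, 215 and 109.8 FPKM as deposited in the control hearts and at 71.9, 51.8 and 35.8 in the double mutant hearts. A shorter one, ENSMUST00000167983 (8 exons), was at 85.1, 46.3 and 17.1 in libraries 2, 3 and 5 and listed at 0 in libraries 1, 4 and 6. A listed 0 can be a failed estimate. Assembled transcripts held 50.2%, 24.3% and 24.9% of the value in libraries 1, 2 and 3 and 30.3% and 45.4% in libraries 4 and 6, with none in library 5. Over reference transcripts alone the difference was -1.20 (limma adjusted p = 0.622).

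Ankrd2, which is best known from slow skeletal muscle, was almost silent here. It lies on chromosome 19 from 42110528 to 42119600 in NCBIM37, plus strand (ENSMUSG00000025172). Its level was 0.0437, 0.0971 and 0.0395 FPKM in the control hearts and 0.0395, 0.176 and 0.0461 in the double mutant hearts, and at this level it was not tested. The 3 family members thus lay at very unequal levels in the same hearts, Ankrd1 and Ankrd23 above 60 FPKM and Ankrd2 under 1 in all 6 libraries.

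Csrp3 encodes muscle LIM protein, a Z-disc protein needed for the structure of cardiac muscle. It lies on chromosome 7 from 56085768 to 56103400 in NCBIM37, minus strand (ENSMUSG00000030470). Its level was 369.8, 594 and 517 FPKM in the control hearts and 625, 447 and 380.1 in the double mutant hearts. Library 4 was the highest and library 1 the lowest, and the groups overlapped nearly completely. The difference was -0.03 ± 0.25 (95% interval -0.61 to 0.55, limma adjusted p = 0.973), and its sign turned in 5 of 20 alternative settings.

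The FHL proteins consist of LIM domains and bind sarcomere proteins, and Fhl2 also binds calcineurin and restrains its signalling. Fhl2 (ENSMUSG00000008136, chromosome 1, 43179919 to 43220806 in NCBIM37, minus strand) was the most abundant member. Its level was 621, 853 and 1078 FPKM in the control hearts and 1082, 860.1 and 757 in the double mutant hearts. The highest control and the highest double mutant were nearly equal, and the difference was 0.10 ± 0.24 (95% interval -0.46 to 0.66, limma adjusted p = 0.906). Its 1 reference transcript was listed at 0 in all 6 libraries, and the whole value came from 12 assembled transcripts. Fhl1 (ENSMUSG00000023092, chromosome X, 53984964 to 54046523, plus strand) was at 23.3, 25.6 and 25.4 FPKM in the control hearts and at 18.9, 28.9 and 23.1 in the double mutant hearts. The controls lay inside the double mutants' range, and the difference was -0.08 ± 0.16 (95% interval -0.47 to 0.30, limma adjusted p = 0.883). In library 5, the top of that range, an assembled transcript held 43.9% of the value of Fhl1, and in library 2 another held 19.6%. Over reference transcripts alone the difference was -0.26 (limma adjusted p = 0.658). Neither FHL gene kept its sign in every setting.

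The Xin repeat proteins bind actin at the intercalated disc. Xirp2 (ENSMUSG00000027022, chromosome 2, 67284059 to 67364671 in NCBIM37, plus strand) was at 89.1, 148 and 118 FPKM in the control hearts and at 99.7, 90.5 and 82.0 in the double mutant hearts. Libraries 2 and 3 were the 2 highest, while library 1 lay among the double mutants. The difference was -0.35 ± 0.20 (95% interval -0.82 to 0.11, limma adjusted p = 0.553, exact permutation p = 0.3), and -0.18 without library 2. As deposited, a transcript of 2044 nt was at 44.3, 91.0 and 46.6 FPKM in the control hearts and at 80.1, 33.2 and 35.0 in the double mutant hearts. The transcript of 11979 nt was at 45.4, 29.5 and 61.9 against 21.6, 47.9 and 47.8, so it did not peak in library 2. The difference was -0.20 over reference transcripts and -0.10 with the strongest transcript alone.

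Xirp1 (ENSMUSG00000079243, chromosome 9, 119922873 to 119932716, minus strand) was also highest in libraries 2 and 3, at a lower level. It was at 12.8, 20.7 and 20.1 FPKM in the control hearts and at 12.9, 14.7 and 13.6 in the double mutant hearts. Libraries 2 and 3 lay above the double mutants and library 1 just below all of them, so the controls spanned the double mutant range, with a difference of -0.33 ± 0.19 (limma adjusted p = 0.563, exact permutation p = 0.4). Part of the value came from 7 assembled transcripts, which held 73.4% of the FPKM in library 2 and 25.6% to 49.2% in the others. With the reference transcript alone the difference was 0.22, and with FPKM taken per length of the longest transcript 0.07.

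Rcan1, the feedback inhibitor of calcineurin, was the 1 tested member whose genotypes did not overlap. The gene (ENSMUSG00000022951) lies on chromosome 16 from 92392198 to 92466391 in NCBIM37, minus strand. It was at 10.5, 20.4 and 10.9 FPKM in the control hearts and at 8.20, 8.36 and 7.29 in the double mutant hearts. All 3 double mutants lay below all 3 controls and close together, while library 2 stood high among the controls. The means were 13.9 ± 5.60 and 7.95 ± 0.580 FPKM, a ratio of 0.571. The difference was -0.68 ± 0.24 (95% interval -1.25 to -0.11, unadjusted p = 0.0259, limma adjusted p = 0.358, exact permutation p = 0.1, the smallest it can give). Without library 2 it was -0.39 (unadjusted p = 0.0215), still with no overlap. The genotypes overlapped over reference transcripts alone (-0.49, unadjusted p = 0.116) and with the strongest transcript alone (-0.34, unadjusted p = 0.284). The hearts are bulk samples, in which fewer cells of a type and less RNA per cell cannot be told apart.

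Rcan1 has 2 starts that give 2 proteins, and the short form from the internal start is the one known to be induced by calcineurin through NFAT. The 2 reference transcripts could be told apart in the files, and they were compared after their values had been seen. The transcript from the upstream start, ENSMUST00000060005, was at 5.43, 6.11 and 4.40 deposited FPKM in the control hearts and at 6.62, 3.95 and 5.47 in the double mutant hearts. These overlapped throughout. After scaling the means were 5.17 ± 0.788 and 5.44 ± 1.04 FPKM, and the difference was 0.06 ± 0.16 (95% interval -0.32 to 0.44, limma adjusted p = 0.926).

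Transcripts from internal starts were at 6.78, 14.4 and 5.66 deposited FPKM in the control hearts and at 1.75, 3.54 and 1.89 in the double mutant hearts. Every double mutant was lower than every control, library 2 being the highest. The scaled means were 8.76 ± 4.82 and 2.51 ± 1.25 FPKM, and the difference was -1.42 ± 0.36 (95% interval -2.28 to -0.57, unadjusted p = 0.00553, limma adjusted p = 0.264). Leaving out any 1 library gave values from -1.71 to -1.04, the latter without library 2. Internal starts held 55.5%, 70.2% and 56.3% of the FPKM of Rcan1 in the controls and 20.9%, 47.3% and 25.7% in the double mutants. This share, which no scaling between libraries can change, was 60.7% ± 8.27 against 31.3% ± 14.1, without overlap (exact permutation p = 0.1, the smallest possible). From the 2 reference transcripts alone the share was 55.5%, 66.0% and 39.1% in libraries 1, 2 and 3 and 20.9%, 47.3% and 25.7% in libraries 4, 5 and 6, which overlapped because library 3 lay below library 5.

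The internal value summed the reference transcript ENSMUST00000023672 with an assembled transcript in libraries 2 and 3, at 2.55 and 2.84 FPKM, which began within the gene at another first exon. The reference transcript alone was at 6.78, 11.9 and 2.83 FPKM in the control hearts and at 1.75, 3.54 and 1.89 in the double mutant hearts, so that library 3 then fell below library 5. Reads of exons that the forms share were divided between them by the authors' assembly program. The NFAT cores printed above lie before the internal start, and no binding was measured in this series.

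**Figure D3:**
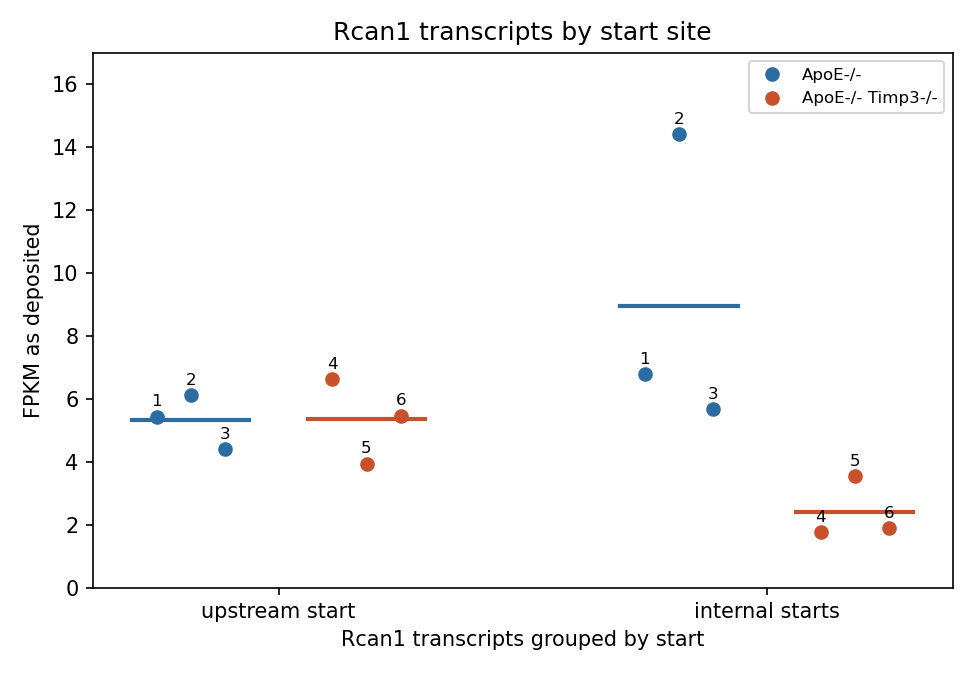
FPKM of Rcan1 as deposited, for the transcript from the upstream start and for transcripts from internal starts together; points are libraries, numbered, and bars are the means of 3 libraries per genotype. Internal-start values are 5.66 to 14.4 in ApoE-/- and 1.75 to 3.54 in ApoE-/- Timp3-/-, while the upstream start overlaps between genotypes.

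Mybpc2 encodes the fast skeletal form of myosin-binding protein C. It lies on chromosome 7 from 51757088 to 51780039 in NCBIM37, minus strand (ENSMUSG00000038670), and was the lowest tested member. Its level was 2.36, 5.60 and 2.92 FPKM in the control hearts and 1.84, 2.89 and 1.38 in the double mutant hearts. Library 2 was high, and double mutant library 5 lay between the other controls. The means were 3.62 ± 1.73 and 2.04 ± 0.773 FPKM, with a difference of -0.57 ± 0.29 (95% interval -1.25 to 0.10, limma adjusted p = 0.504, exact permutation p = 0.2), and -0.29 without library 2.

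Markers of skeletal muscle lay the other way from Mybpc2. Of 16 such genes 10 were tested, all 10 had a difference above 0, and the median was 0.37. Tnni1, Tnnt1, Myh2, Myh4 and Casq1 had every double mutant above every control, 5 of 10 against 9.82% of all genes, and none passed the adjusted threshold. The slow troponin Tnnt1, for example, was at 5.24 ± 0.758 FPKM in the control hearts and 9.57 ± 2.35 in the double mutant hearts. Tnni1, Myh2, Myh4 and Casq1 were low, with control means of 0.985, 1.22, 1.65 and 2.70 FPKM. The summed level of the list was 57.1 to 60.8 FPKM in the controls and 67.3 to 78.0 in the double mutants. Its largest part was Myl1, at 29.8 to 38.4 FPKM, with a difference of 0.02.

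Library 2 shaped several of these comparisons. It was the highest library for 6 of the 9 tested members (Ankrd1, Ankrd23, Xirp1, Xirp2, Rcan1 and Mybpc2), and 18.8% of all genes tested peaked there. Csrp3 and Fhl2 were highest in library 4, as 24.1% of all genes were, and Fhl1 in library 5 (14.4%). No tested member was highest in library 1, 3 or 6, where 17.9%, 12.2% and 12.5% of genes were. Libraries 1 and 6, with the highest atrial marker sums, had the lowest summed level of the 10 members, 1329 and 1441 FPKM against 1741 to 2648 in the other 4. Most of the sum in libraries 1 and 6 was Fhl2, at 621 and 757 FPKM, and Csrp3, at 369.8 and 380.1. The atrial covariate was the mean of Myl7, Myl4, Sln and Mybphl, without Nppa. With it, the difference was -0.88 for Ankrd23, -0.56 for Rcan1 (unadjusted p = 0.0604) and -0.45 for Mybpc2. It was -0.21 for Xirp1, -0.20 for Xirp2 and -0.12 for Fhl1, and above 0 for Ankrd1 (0.03), Csrp3 (0.19) and Fhl2 (0.31). No adjusted p passed in that fit. Nppb, a natriuretic peptide released on stretch and named here after its values were seen, was also highest in library 2, at 132 FPKM against 20.2 to 44.1 in the other 5. It belongs to the list of hypertrophy and load markers. Of the 4 genes of that list described below, Hbegf was highest in library 2 and Wwtr1 was neither highest nor lowest. Myh7 was lowest there at 74.0 FPKM, against 75.5 in library 1, and Atf3 at 1.44, against 1.54 in library 3. These 4 were named for the smallest p between genotypes, so their place in a control library cannot describe the list.

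Across the 6 libraries, members resembled each other to different degrees. The pair most alike was Ankrd23 and Xirp2 (Pearson r = 0.99 of the log2 values), followed by Rcan1 and Mybpc2 (0.92) and Ankrd23 and Rcan1 (0.91). The least alike were Csrp3 and Fhl1 (-0.26). Library 2 is shared by all these values, and they are descriptions over 6 points. Of all genes tested, those most like Ankrd1 were Tmem189, Atp6v1d and Gm2710 (r = 0.99 each). For Rcan1 they were Map3k11, Rtkn and Eif2ak2 (0.99 each), and for Mybpc2 Ino80c, Sh3glb1 and Vps37c (0.99 each). Map3k11, for example, was at 3.50, 5.11 and 3.35 FPKM in the control hearts and at 2.92, 2.89 and 2.58 in the double mutant hearts.

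**Figure D4:**
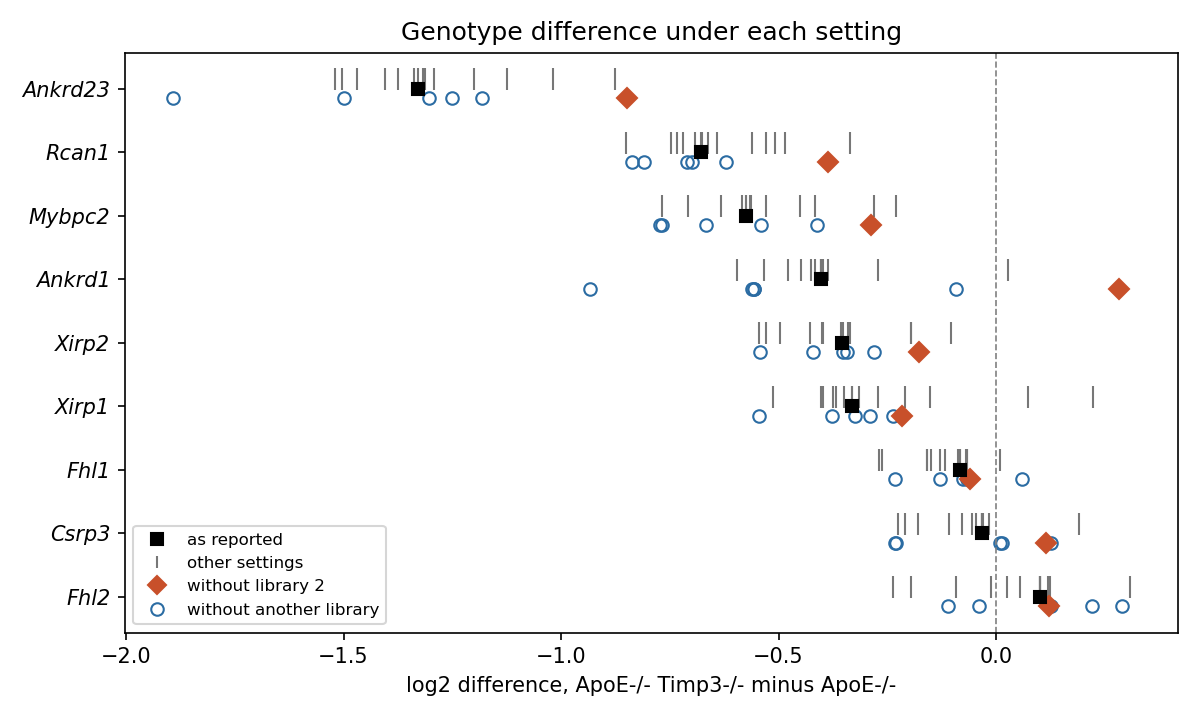
Genotype difference (log2, double mutant minus control) of the 9 tested genes as reported (square), in the other settings (ticks), without library 2 (diamond) and without each other library (circles). Ankrd23, Rcan1, Mybpc2 and Xirp2 stay below 0 in all settings shown, and Ankrd1 moves from -0.40 to 0.28 without library 2.

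Related genes were described by 4 lists. Of 30 genes of calcineurin and NFAT signalling, 25 were tested and 0 passed the adjusted or the unadjusted threshold in limma. The unadjusted threshold was passed by 11.9% of all genes. Without overlap, 4 of the 25 were lower and 1 was higher in the double mutants, as were 9.14% and 9.82% of all genes. The median difference was -0.06. Ppp3r1, the regulatory subunit of calcineurin, was at 20.0 ± 3.51 FPKM in the control hearts and 25.2 ± 1.42 in the double mutant hearts (0.34 ± 0.15). The relatives of Rcan1 had each double mutant below each control: Rcan2 was at 80.6 ± 8.30 against 65.8 ± 8.09 FPKM (-0.29 ± 0.15), and Rcan3 at 1.83 ± 0.0705 against 1.43 ± 0.267 (-0.23 ± 0.14). Gsk3b, a kinase that returns NFAT to the cytoplasm, was at 5.26 ± 0.934 against 4.00 ± 0.605 FPKM, with overlap.

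Of 36 genes of the Z-disc, titin and the costamere, 35 were tested and 0 passed the adjusted threshold. At an unadjusted p under 0.05, 1 was lower and 2 were higher, against 5.19% and 6.74% of all genes, and the median was -0.08. Without overlap, 4 were lower and 2 higher, against 9.14% and 9.82% of all genes. Myotilin (Myot), a Z-disc protein that binds alpha-actinin, was at 8.61, 17.6 and 9.38 FPKM in the control hearts and at 4.15, 6.41 and 6.19 in the double mutant hearts. Like Rcan1, it separated the genotypes and peaked in library 2 (-0.92 ± 0.27, limma adjusted p = 0.294). Pdlim3, another alpha-actinin partner, lay the other way at 3.77 ± 0.562 against 5.98 ± 0.299 FPKM (0.56 ± 0.12, limma adjusted p = 0.252). Nebl, the cardiac relative of nebulin, was at 47.9 ± 11.2 against 68.5 ± 11.5 FPKM, and Lims2, an adaptor of integrin adhesions, at 17.6 ± 4.30 against 12.7 ± 1.01.

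Of 19 other markers of hypertrophy and load, 15 were tested and 0 passed the adjusted threshold. At an unadjusted p under 0.05, 2 were lower and 2 higher, against 5.19% and 6.74% of all genes, and the median was -0.09. Myh7, the slow beta myosin heavy chain of the fetal and loaded mouse heart, was at 75.5, 74.0 and 80.3 FPKM in the control hearts and at 148, 117 and 111 in the double mutant hearts. Its groups lay far apart (0.69 ± 0.14, limma adjusted p = 0.243), in the opposite direction to Rcan1 and Ankrd23. The stress-induced factor Atf3 was at 1.90 ± 0.708 against 4.15 ± 1.53 FPKM (0.81 ± 0.27). The growth factor Hbegf was at 3.65 ± 0.889 against 2.21 ± 0.475 FPKM (-0.53 ± 0.18), and Wwtr1, which encodes the TEAD partner TAZ, at 10.98 ± 0.428 against 7.62 ± 1.40 (-0.49 ± 0.14). Without overlap, 3 genes of this list were lower and 1 was higher, against 9.14% and 9.82% of all genes.

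Of 11 relatives of the members in the same gene families, 6 were tested, and the median was -0.005. None lay without overlap, where 9.14% of all genes lay lower and 9.82% higher. Fhl3 was at 2.16 ± 0.769 against 1.73 ± 0.586 FPKM, Csrp2 at 7.99 ± 2.46 against 8.64 ± 0.739, and Crip2 at 212 ± 26.4 against 195 ± 75.3. Mybphl, itself on the list of atrial markers and part of the atrial covariate, was at 20.4, 12.3 and 14.2 FPKM in libraries 1, 5 and 6 and under 1 in the others.

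**Figure D5:**
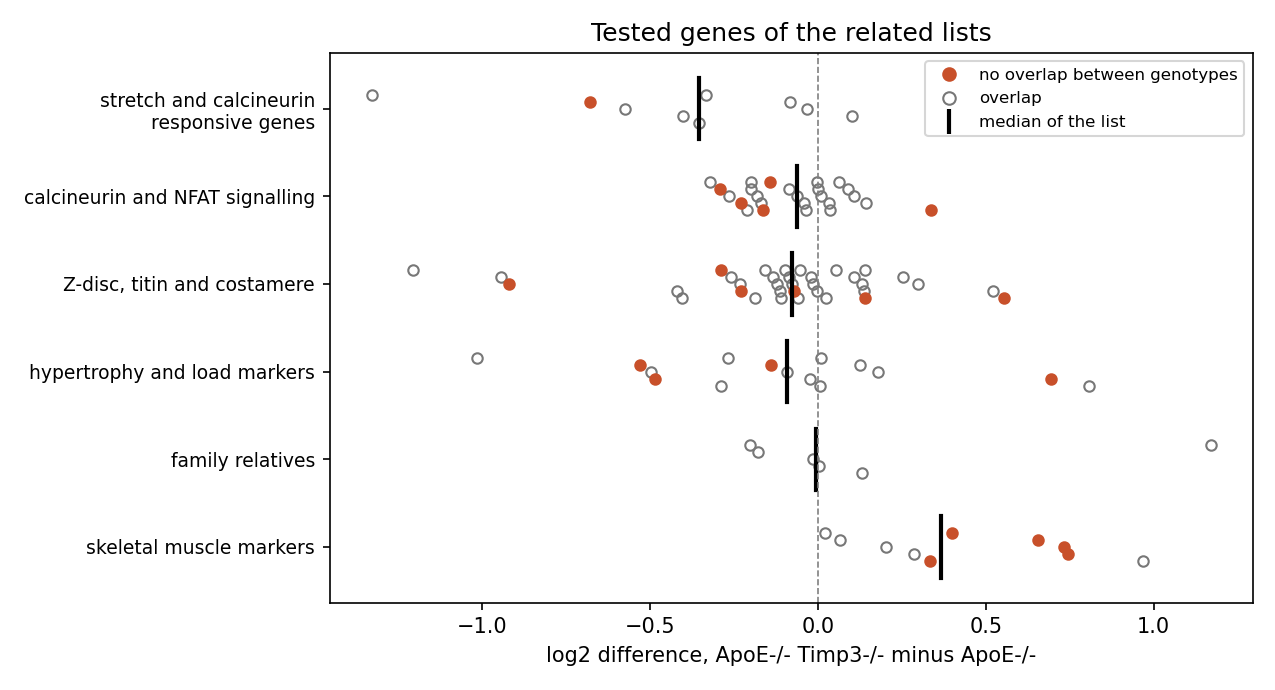
Genotype difference (log2, double mutant minus control) of each tested gene in 6 lists; filled points are genes whose genotypes do not overlap, open points overlap, and black bars are list medians. The median of the stretch and calcineurin responsive genes is -0.35 and that of the skeletal muscle markers 0.37, with the other 4 lists between -0.09 and -0.005.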

How the data were processed

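Messenger RNA was sequenced from 6 mouse hearts, 3 per genotype. The authors deposited 1 file of transcripts per library with FPKM values as attributes. Per the submitters' processing notes, the tools were TopHat, Bowtie and Cufflinks on the build NCBIM37. Versions, settings and strand use: not given in the sources used here. Without reads per gene, no count test could be made. Genes on opposite strands that overlap cannot be told apart.

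Reference transcripts were matched to genes by transcript ID (82353), gene ID (2305) or exon overlap (6217). Assembled transcripts of at least 300 nt, which hold 34.0% to 39.6% of aligned bases, were added at an exon overlap of at least 50%, found with bedtools 2.31.1. FPKM were summed by gene and scaled by the median of ratios (factors 0.896 to 1.17). Genes averaging at least 1 FPKM, with 1 transcript or more of 300 nt, entered limma 3.58.1 in R 4.3.3 on log2(FPKM + 1), with an intensity trend and no block. Nothing beyond the word littermates says how samples relate, so the p-values rest on the spread among these 6 libraries, which may be technical. Precision is not given per gene: the deposited transcripts carry confidence limits of their FPKM, and these were not used.

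The members, lists and tests were chosen with earlier results of these data known. Named were all members, Timp3, the 4 genes of each pathway list with the smallest p, skeletal muscle and atrial markers, and the 3 genes most like Ankrd1, Rcan1 and Mybpc2. Promoters are from RefSeq, where 9 members matched. Alternatives changed 1 choice at a time: scaling, pseudocount, filter, choice of transcripts, library weights, intensity trend and each library left out. Chosen after the data were seen were FPKM per length, any exon overlap, an atrial covariate (the mean of Myl7, Myl4, Sln and Mybphl) and the division of Rcan1 by start.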

Additional observations from a re-analysis of the deposited data

How the results depend on the processing

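No paired analysis was possible because the labels give the genotypes no shared replicate number. No member passed the adjusted threshold, and none had all double mutants above all controls, in any setting run. The count of members with an unadjusted p under 0.05, 2 as reported, was 4 with no further scaling and with weighted libraries, 5 with scaling to a fixed total, 0 over reference transcripts or the strongest transcript alone, and 1 with any exon overlap or the atrial covariate; it ranged from 0 to 5 with 1 library left out. The count below all controls, 1 as reported, was 5 with no further scaling, 4 with a fixed total, 3 with quantile normalization, 2 with a mean FPKM of at least 5 or per length, and 0 over reference transcripts or the strongest transcript alone; it ranged from 1 to 5 with 1 library left out, the highest without library 1.

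Ankrd23, Rcan1, Mybpc2 and Xirp2 were below 0 in every setting run, with ranges of -1.89 to -0.85, -0.85 to -0.34, -0.77 to -0.23 and -0.54 to -0.10; Rcan1 lost its separation over reference transcripts alone and with the strongest transcript alone. Signs turned for Ankrd1 with the atrial covariate (0.028), for Csrp3 with that covariate (0.19), for Xirp1 over reference transcripts (0.22) and per length (0.073), and for Fhl1 with weighted libraries (0.0090). Fhl2 turned with quantile normalization (-0.24), a fixed total (-0.092), the strongest transcript (-0.012) and weighted libraries (-0.20). With 1 library left out the ranges were -0.93 to 0.28 for Ankrd1, -0.23 to 0.13 for Csrp3, -0.23 to 0.061 for Fhl1 and -0.11 to 0.29 for Fhl2.

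Scaling to a fixed total moved the median of all genes to -0.16, and with it the medians of the calcineurin list to -0.23 and of the Z-disc list to -0.25. The calcineurin median was -0.13 with no further scaling and ranged from -0.12 to -0.021 with 1 library left out. The median of the family relatives was 0.30 with the strongest transcript alone. The cause of these shifts was not tested.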
